A study of Mus musculus with 4 samples.

Results

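The D-type cyclins Ccnd1, Ccnd2 and Ccnd3, their kinases Cdk4 and Cdk6, the retinoblastoma family Rb1, Rbl1 and Rbl2, and the transcription factors E2f1 and E2f2 were followed through single cells of a mouse brain tumour. These 10 genes were taken by name from the 13149 genes listed for all 4 tumours of the study. Their values did not enter the rule, but earlier results of these data were known when they were chosen. The tumours were sonic hedgehog (SHH) medulloblastomas, cancers of the cerebellum, taken at end point from Ptch1+/- mice that had been irradiated at birth and received no treatment, and each tumour gave 1 library of live-sorted cells on the 10x Genomics platform. All tumours belonged to the same group, every cell came from a Ptch1+/- mouse, and no normal cerebellum was among the samples, so comparisons were made between cell classes of the same tumour. The labels give no strain or age at end point and do not state that each tumour came from a different mouse. The p-values below therefore measure the spread between these 4 tumours.

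In the textbook pathway, a D-type cyclin binds Cdk4 or Cdk6 and the active kinase phosphorylates the retinoblastoma protein. Phosphorylated retinoblastoma protein lets go of the E2F factors, which then switch on genes for DNA replication, among them the cyclins E and A. Ptch1 encodes the receptor that holds hedgehog signalling in check. In the cerebellum hedgehog signalling drives the division of granule neuron progenitors, the cells from which this tumour arises, and Ccnd1, Ccnd2 and Mycn are known among the genes it raises. A cell that leaves the cycle to become a granule neuron normally lowers cyclin D1 and raises inhibitors such as Cdkn1b.

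The 6490 cells analysed were grouped into classes by marker genes, with the 10 genes kept out of the clustering. Neuron-like cells numbered 42, 445, 150 and 67 in tumours 1 to 4, and the same 4 tumours held 128, 556, 238 and 73 cycling-like cells, which joined G2/M-like and S-phase-like cells. Granule progenitor-like cells, the class low for genes of the cell cycle, numbered 114, 402, 183 and 98. Progenitor-like cells joined these with the cycling-like cells and with mixed clusters, and numbered 451, 1684, 823 and 460. There were also 73 astrocyte-like, 107 oligodendrocyte lineage-like and 673 myeloid-like cells. Levels are given as CPM, the unique molecular identifiers (UMIs) of a gene per 1000000 UMIs of the class in that tumour. CPM is not divided by gene length, so levels are compared between classes and not between genes. Differences are in log2(CPM + 10), from limma with the tumour as a block and Benjamini-Hochberg adjustment over all genes tested, and a gene is called past the threshold at an adjusted p under 0.05. In classes that a cell-cycle score defines, differences in replication genes were partly fixed by that definition. Granule progenitor markers summed to 4137, 5164, 5668 and 3754 CPM in neuron-like cells of tumours 1 to 4. In progenitor-like cells they summed to 2535, 3014, 3882 and 1814 CPM, lower in each tumour. Neuron markers summed to 5331, 11327, 7962 and 6787 CPM in neuron-like cells against 941, 1933, 2034 and 1241 CPM in progenitor-like cells.

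Libraries differed in depth, with a median of 15284 UMIs a cell in tumour 1 and between 6799 and 7825 in tumours 2, 3 and 4. Tumour 1 also held 51 muscle-like cells, against 2 in tumour 4 and 0 in tumours 2 and 3. Tumour 4 was richest in immune cells, with 456 myeloid-like and 369 neutrophil-like cells. Pairs of libraries shared 17 cell barcodes in all. The caller used for doublets marked 19 cells against 99 expected, so doublets may remain in every class.

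All 10 genes passed the filter on detection, 5% of cells in either class, in all 6 comparisons. Rbl1 was below 5% in neuron-like cells (at most 2.38% in any tumour) and in granule progenitor-like cells (29 UMIs in 797 cells). E2f2 was below 5% in neuron-like cells (28 UMIs in 704 cells). Both genes entered those comparisons only through the other class, where they were higher, and this bears on their calls there. Neuron-like against progenitor-like cells gave 0 higher and 5 lower genes of the 10, where 44.6% of all genes tested were called, 24.3% as higher and 20.3% as lower. Cycling-like against granule progenitor-like cells gave 6 higher and 1 lower, where 21.6% of all genes were called, 12.2% as higher and 9.41% as lower. G2/M-like against S-phase-like cells gave 0 higher and 4 lower, beside 16.3% of all genes called, 7.46% as higher and 8.81% as lower. Astrocyte-like against progenitor-like cells gave 0 higher and 1 lower, beside 5.16% of all genes called, 3.25% as higher and 1.92% as lower. In oligodendrocyte lineage-like cells 0 of the 10 passed the limma threshold, beside 2.6% of all genes called, 2.34% as higher and 0.266% as lower, and 5 of the 10 had an unadjusted p under 0.05. Myeloid-like cells gave 1 higher and 5 lower beside 64.8% of all genes called, 12.0% as higher and 52.9% as lower, so their count of lower genes stood at the background. The counts for the neuron-like, cycling-like and G2/M-like cells were above the background share in the direction named, over a list of only 10 genes. The neuron-like count includes Rbl1 and E2f2 and the cycling-like count includes Rbl1, so part of the excess in those counts was fixed by the filter.

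**Figure D1:**
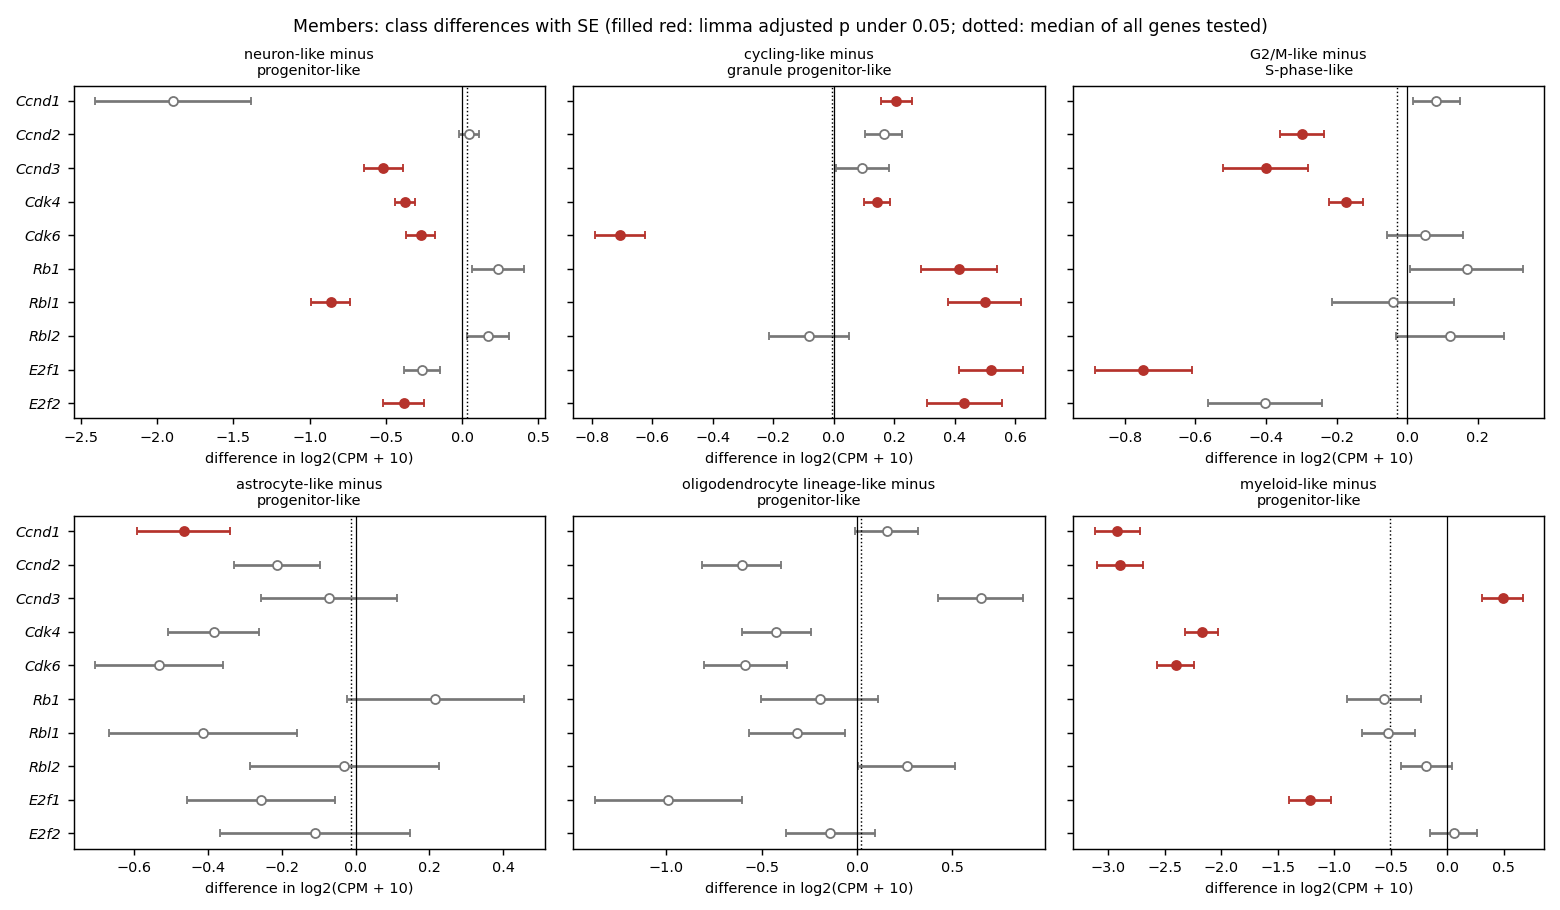
Difference in log2(CPM + 10) for the 10 genes (rows) in 6 comparisons (panels), first class minus second, with bars of 1 SE from limma over 4 tumours. Filled red points passed an adjusted p of 0.05 and open grey points did not, and the dotted line is the median of all genes tested, which lay at -0.51 for myeloid-like cells.

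Ccnd1 encodes cyclin D1, the D cyclin most tied to hedgehog-driven division of granule progenitors. Its level was 227, 55.5, 136 and 119 CPM in neuron-like cells of tumours 1 to 4, against 345, 589, 576 and 442 CPM in progenitor-like cells. Neuron-like cells were lower in 4 of 4 tumours and the groups did not overlap, but the size of the gap varied widely, from the shallow gap of tumour 1 to the wide one of tumour 2. The difference was -1.90 ± 0.51 (SE) on the log2 scale with a limma adjusted p of 0.0613, which missed the threshold. Without tumour 1 the difference was -2.34 and the adjusted p was 0.000733, and without the tumour block the adjusted p over all 4 tumours was 0.00585. Over 13 alternative settings the adjusted p ran between 4.39e-05 and 0.19. On means of the deposited log2 values the difference was -1.52 and also past the threshold, so the call for Ccnd1 depended on tumour 1, on the scale and on the model. Tumour 1 was the deepest library and held the fewest neuron-like cells.

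Ccnd2 encodes cyclin D2, which also acts in granule progenitors. It had 515, 1005, 1364 and 802 CPM in neuron-like cells against 475, 1106, 1385 and 687 CPM in progenitor-like cells. The 2 classes overlapped almost completely, with neuron-like cells higher in 2 tumours and lower in 2. The limma difference was 0.04 ± 0.07 with an adjusted p of 0.626, and across 13 alternative settings it lay between -0.12 and 0.14. Ccnd2 thus differed by less than its error in cells with neuronal transcripts, where Ccnd1 was lower in each of the 4 tumours.

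Ccnd3, which encodes the D cyclin best known from muscle and blood cells, fell in neuron-like cells. It had 107, 27.5, 32.7 and 30.7 CPM in neuron-like cells against 118, 64.0, 53.0 and 43.6 CPM in progenitor-like cells. The difference was -0.52 ± 0.13 with a limma adjusted p of 0.00199, and 4 of 4 tumours were lower. After cells were thinned to 4900 UMIs each, the difference was -0.31 and no longer past the threshold, with an adjusted p of 0.202, and over 13 alternatives the adjusted p ran between 0.00104 and 0.393.

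The split of D cyclin UMIs among the 3 genes does not depend on the class total, and it carries the same contrast. Ccnd1 took 13.3% ± 9.45 of D cyclin UMIs in neuron-like cells and 34.1% ± 4.13 in progenitor-like cells (SD, n = 4). Ccnd2 took 81.6% ± 14.3 in neuron-like cells and 60.2% ± 7.64 in progenitor-like cells. Both shifts had the same direction in 4 of 4 tumours, by -20.8 and 21.4 percentage points, and each gave p = 0.13 in an exact sign-flip permutation test, two-sided, which is the smallest p that 4 tumours allow. The 3 shares make up the whole, so the rise of the Ccnd2 share mirrors the fall of the Ccnd1 share and is not a separate result. The Ccnd3 share was 5.12% in neuron-like cells against 5.64% in progenitor-like cells.

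**Figure D2:**
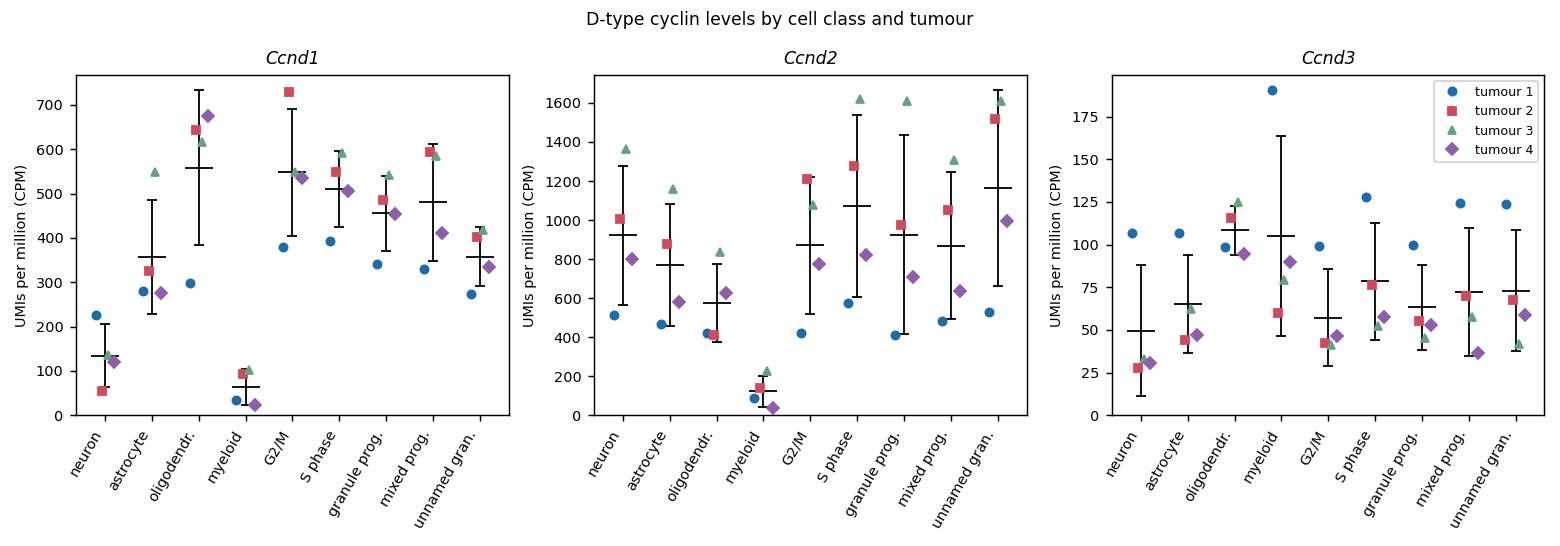
Levels of Ccnd1, Ccnd2 and Ccnd3 in CPM by cell class, with 1 point per tumour and bars for the mean and SD over 4 tumours. Ccnd1 is low in neuron-like and myeloid-like cells, Ccnd2 is low in myeloid-like cells and near the progenitor level in neuron-like cells, and tumour 1 stands high for Ccnd3 and low for Ccnd2 in the granule lineage.

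Within the cycle, the D cyclins changed by small amounts. Ccnd1 had 387, 633, 575 and 518 CPM in cycling-like cells against 341, 486, 541 and 453 CPM in granule progenitor-like cells. It rose by 0.21 ± 0.05 with a limma adjusted p of 0.00342, in 4 of 4 tumours, though the ranges of the 2 classes overlapped across tumours. The call was lost without tumour 2 (0.15, adjusted p = 0.0694) and after thinning (0.12, adjusted p = 0.307), among 12 alternatives between 2.74e-06 and 0.728. Ccnd2 differed by 0.16 with an adjusted p of 0.0518, and its direction turned with the clustering, to -0.23 at a finer resolution (adjusted p = 0.000443). Cells clustered with the called doublets kept gave -0.10, and in that clustering the granule progenitor-like class held 1417 cells, against 797 in the main one. The parts of the doublets and of the new classes were not separated. For Ccnd2 the difference without tumour 3 was 0.28 (adjusted p = 0.000562), and over 12 alternatives the adjusted p ran up to 0.95. Ccnd3 differed by 0.09 ± 0.09 with an adjusted p of 0.496.

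Between the phases, Ccnd2 and Ccnd3 were lower in G2/M-like cells. Ccnd2 had 419.8, 1212, 1078 and 773 CPM in G2/M-like cells against 575, 1278, 1620 and 822 CPM in S-phase-like cells, a difference of -0.30 ± 0.06 with a limma adjusted p of 0.00127. Ccnd3 had 99.4, 42.1, 40.9 and 46.7 CPM in G2/M-like cells against 128, 76.1, 52.6 and 57.4 CPM in S-phase-like cells, a difference of -0.40 ± 0.12 with an adjusted p of 0.0218. Ccnd1 had 380.0, 729, 548 and 535 CPM in G2/M-like cells against 392, 549, 591 and 505 CPM in S-phase-like cells, higher in 2 tumours and lower in 2. Of the D cyclin UMIs, the Ccnd1 share was thus 6.02 percentage points higher in G2/M-like cells in 4 of 4 tumours, with p = 0.13 in the exact sign-flip test. Both calls were lost at the finer clustering, at -0.11 for Ccnd2 and -0.15 for Ccnd3, and in the clustering with called doublets kept, at -0.10 and -0.28, where G2/M-like cells numbered 610 against 405 in the main clustering and S-phase-like cells 945 against 590. Leaving out tumour 3 took Ccnd2 to -0.20 with an adjusted p of 0.0596, while leaving out tumour 1 or tumour 2 took Ccnd3 to an adjusted p of 0.0698 or 0.246. Over 11 alternatives the adjusted p ran between 5.8e-06 and 0.851 for Ccnd2 and between 0.00597 and 0.597 for Ccnd3.

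Outside the granule lineage the split of the D cyclins was different in myeloid-like cells. Ccnd1 had 33.4, 93.9, 102 and 24.1 CPM in myeloid-like cells against the progenitor-like levels given above, a difference of -2.92 ± 0.20 with a limma adjusted p of 1.82e-06. Ccnd2 had 88.3, 141, 226 and 39.1 CPM there, a difference of -2.90 ± 0.21 with an adjusted p of 1.96e-06. The median of all genes was itself -0.51 in this comparison, so relative to that shift the differences were -2.41 for Ccnd1 and -2.39 for Ccnd2. Ccnd3 had 191, 60.2, 79.1 and 89.8 CPM in myeloid-like cells and rose, by 0.49 ± 0.18 with an adjusted p of 0.0322, in 3 of 4 tumours. Without tumour 1 or tumour 4 the Ccnd3 call was lost, at differences of 0.44 and 0.36 with adjusted p of 0.13 and 0.179, and at the finer clustering the difference was 0.01 (adjusted p = 0.98). Ccnd3 took 39.9% ± 23.1 of D cyclin UMIs in myeloid-like cells against 5.64% ± 4.64 in progenitor-like cells, higher in 4 of 4 tumours (exact sign-flip p = 0.13). Granule progenitor markers summed to between 75.0 and 474 CPM in myeloid-like cells against between 1814 and 3882 CPM in progenitor-like cells. Their part in the low Ccnd1 and Ccnd2 levels of myeloid-like cells was not tested. The class joined 3 clusters, and 429 of the 456 cells of tumour 4 came from a cluster that held 4 cells of the other tumours.

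Muscle-like cells gave the highest Ccnd3 level of any class, in 1 tumour only and so with no replicate. The 51 such cells of tumour 1 had 644 CPM of Ccnd3, with an exact Poisson interval of 589 to 703 CPM that covers counting error only. Ccnd3 took 91.5% of their D cyclin UMIs, Ccnd2 3.63% and Ccnd1 4.90%. T and NK cell-like cells, found in numbers in tumour 4, had 327 CPM of Ccnd3, 326 CPM of Ccnd2 and 11.7 CPM of Ccnd1 there.

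**Figure D3:**
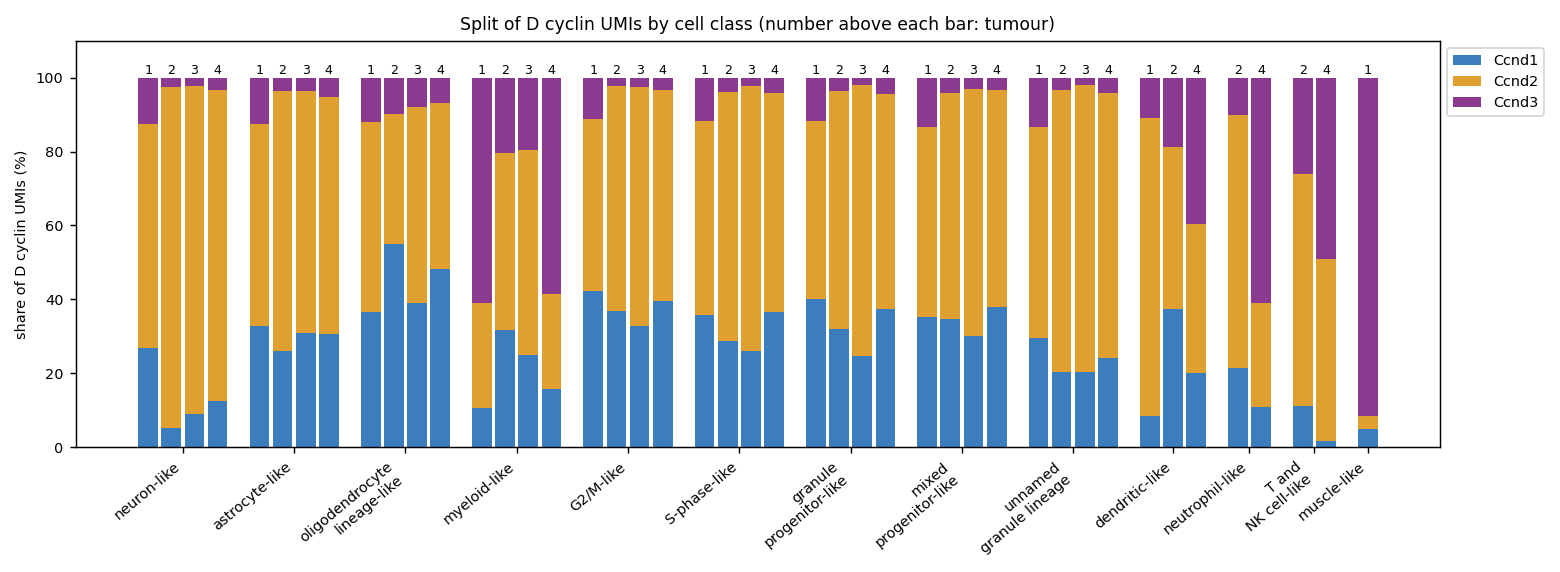
Share of D cyclin UMIs (percent) taken by Ccnd1, Ccnd2 and Ccnd3, with 1 stacked bar for each class and tumour with at least 10 cells and the tumour number above it. Ccnd1 narrows in neuron-like cells. Ccnd3 widens in myeloid-like cells of each tumour, to 61.0%, 20.4%, 19.4% and 58.7% in tumours 1 to 4, and fills 91.5% in muscle-like cells. In the other immune classes its share is widest in tumour 4.

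The D cyclins of the glial classes were set against the same progenitor-like cells. Ccnd1 had 279.9, 325, 548 and 275 CPM in astrocyte-like cells against 345, 589, 576 and 442 CPM in progenitor-like cells, and fell by 0.47 on the log2 scale with a limma adjusted p of 0.0211. That call was lost without tumour 2 (adjusted p = 0.202) and in 7 of 13 alternatives in all, with adjusted p between 0.00733 and 0.468. Oligodendrocyte lineage-like cells had 299, 644, 616 and 674 CPM of Ccnd1, a difference of 0.15 ± 0.17. In this comparison Ccnd2 differed by -0.60 ± 0.21 and Ccnd3 by 0.65 ± 0.22, with limma adjusted p of 0.121 and 0.122. Without tumour 1, which gave 10 cells of the class, both passed the threshold, at -0.75 for Ccnd2 and 0.94 for Ccnd3. The class was not alike across tumours: oligodendrocyte precursor markers summed to 705, 4662, 2848 and 2307 CPM in tumours 1 to 4 and oligodendrocyte markers to 98.5, 17111, 1630 and 206 CPM. The part of this make-up in the differences was not tested. Granule progenitor markers summed to between 898 and 3573 CPM in astrocyte-like cells and between 625 and 2196 CPM in oligodendrocyte lineage-like cells, and their part in these levels was not tested.

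Over the 9 classes found in all 4 tumours, the mean level of Ccnd1 was highest in oligodendrocyte lineage-like cells (558 ± 175 CPM, SD, n = 4) and G2/M-like cells (548 ± 143 CPM). Each neighbour in that order overlapped the next across tumours until the step between astrocyte-like cells, at 357 ± 129 CPM, and neuron-like cells, at 134 ± 70.7 CPM, which did not overlap. Myeloid-like cells were lowest at 63.3 ± 40.1 CPM. For Ccnd2 the step without overlap lay lower in the order, between oligodendrocyte lineage-like cells at 575 ± 201 CPM and myeloid-like cells at 124 ± 79.9 CPM. For Ccnd3 every neighbour overlapped, with means between 108 CPM in oligodendrocyte lineage-like and 49.5 CPM in neuron-like cells.

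Some genes kept the same order of tumours across classes. Ccnd3 was highest in tumour 1, Ccnd2 lowest in tumour 1 and Cdk4 lowest in tumour 4 in all 6 granule-lineage classes, and Ccnd1 was lowest in tumour 1 in 5 of the 6. In granule progenitor-like cells, Ccnd3 had 99.9 CPM in tumour 1 and between 45.1 and 55.3 CPM in the other tumours, and Ccnd2 had 409 CPM in tumour 1 and between 707 and 1608 CPM in the others. Muscle markers summed to 224 CPM in progenitor-like cells of tumour 1, against 74.8, 88.8 and 23.4 CPM in tumours 2, 3 and 4. The part of muscle RNA and of depth in the tumour 1 levels was not tested.

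Most progenitor-like cells held UMIs of both main D cyclins. After thinning to 4900 UMIs a cell, 60.8%, 86.4%, 91.0% and 74.6% of progenitor-like cells of tumours 1 to 4 had both Ccnd1 and Ccnd2. The product of the separate shares was 59.0%, 86.3%, 91.0% and 75.0%, so the pair was seen together about as often as separate shares would give. Without thinning the pair was seen in 87.1%, 92.8%, 91.6% and 85.4% of cells. In neutrophil-like cells of tumour 4, which should hold little of either, thinned shares were 25.0% for Ccnd1 and 30.6% for Ccnd2, at a median of 5325 UMIs before thinning against 10133 in progenitor-like cells of that tumour. The progenitor-like shares of 84.9% and 88.4% in tumour 4 lay well above those.

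The genes most like each D cyclin were found by Pearson correlation of log2(CPM + 10) over 44 tumour-by-class points among 3067 genes with a mean of at least 50 CPM. Points of the same tumour share a library, so these values are a description. Ccnd1 ran closest to Cltb (0.89), Gsg1l (0.88) and Hsd11b2 (0.88), and over the 24 granule-lineage points these were 0.75, 0.95 and 0.78. Ccnd2 ran closest to Fam60a (0.88), Smc3 (0.86) and Ttc9b (0.86). Ccnd3 ran closest to Anxa6 (0.78), Ldha (0.73) and Cd82 (0.73). Ccnd1 and Ccnd2 correlated at 0.72 with each other over all points and at 0.19 over the granule-lineage points.

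Cdk4 and Cdk6 encode the kinases that the D cyclins switch on. Cdk4 had 749, 719, 629 and 505 CPM in neuron-like cells against 895, 941, 864 and 673 CPM in progenitor-like cells. It fell in 4 of 4 tumours, by 0.37 on the log2 scale with an SE of 0.06 and a limma adjusted p of 5.99e-05, and kept the call in 12 of 13 alternatives. On the CPM + 10 scale Cdk4 in neuron-like cells was 0.771 of the progenitor-like level, beside 0.268 for Ccnd1. It had 926, 936, 845 and 645 CPM in cycling-like cells against 815, 848, 752 and 608 CPM in granule progenitor-like cells, and rose by 0.14 ± 0.04 with an adjusted p of 0.0153. G2/M-like cells were lower than S-phase-like cells, at 841, 879, 811 and 591 CPM against 989.8, 985, 865 and 686 CPM, by -0.17 ± 0.05 with an adjusted p of 0.013. Both cell-cycle calls for Cdk4 were lost without tumour 1, at adjusted p = 0.107 for the first and 0.0945 for the second. The first was also lost without tumour 3 (adjusted p = 0.07) and the second without tumour 2 (adjusted p = 0.0577). Over the alternatives the adjusted p reached 0.809 for the first and 0.707 for the second, both without the tumour block.

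Cdk6 had 88.5, 87.2, 163 and 107 CPM in neuron-like cells against 119, 119.5, 171 and 128 CPM in progenitor-like cells. The difference was -0.27 ± 0.09 with a limma adjusted p of 0.0221, lower in 4 of 4 tumours, and the ranges of the classes overlapped. It was lost without tumour 1 (-0.23, adjusted p = 0.0756) and without tumour 2 (-0.22, adjusted p = 0.13), among 13 alternatives between 0.000504 and 0.33. In myeloid-like cells both kinases were low, with Cdk4 at 170.2, 180.5, 282 and 113 CPM and Cdk6 at 15.1, 19.3, 22.6 and 12.2 CPM, against the progenitor-like levels just given. Those differences were -2.17 ± 0.15 for Cdk4 and -2.40 ± 0.16 for Cdk6, with adjusted p of 1.81e-06 and 1.67e-06, or -1.67 and -1.90 relative to the median of all genes. In astrocyte-like cells the differences were -0.38 for Cdk4 and -0.53 for Cdk6, with adjusted p of 0.0634 and 0.0674, and in oligodendrocyte lineage-like cells -0.42 and -0.59, with adjusted p of 0.191 and 0.144. In astrocyte-like cells Cdk6 passed the threshold without tumour 1 (-0.73, adjusted p = 0.0243) and without tumour 4 (-0.62, adjusted p = 0.0164).

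**Figure D4:**
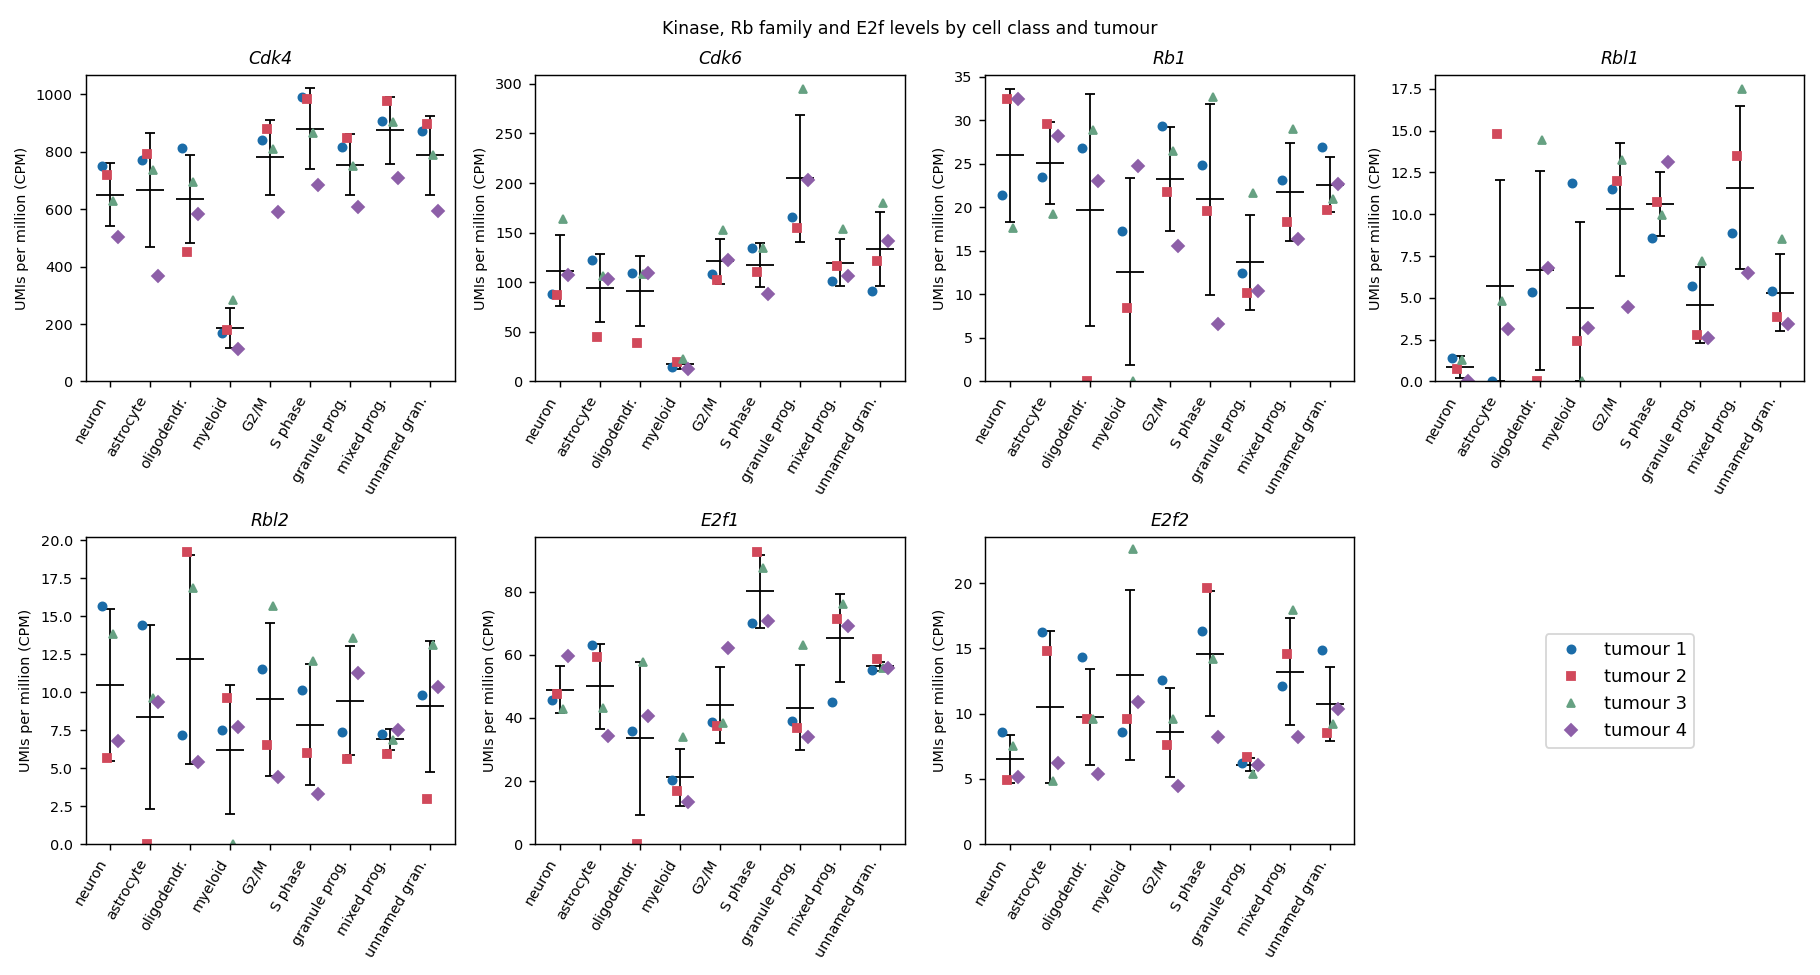
Levels of Cdk4, Cdk6, Rb1, Rbl1, Rbl2, E2f1 and E2f2 in CPM by cell class, with 1 point per tumour and bars for the mean and SD over 4 tumours. The mean of Cdk6 is highest in granule progenitor-like cells in this clustering (in the clustering with doublets kept it is 129 CPM there, below 185 CPM in mixed progenitor-like cells), E2f1 in S-phase-like cells, and Rbl1 is near 0 in neuron-like cells.

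Cdk6 was the only one of the 10 genes that fell in cycling-like cells. It had 123, 107, 141 and 103 CPM in cycling-like cells against 166, 154, 295 and 203 CPM in granule progenitor-like cells, and the groups did not overlap. The difference was -0.71 ± 0.08 with a limma adjusted p of 5.08e-07. Much of it came from a single cluster of granule progenitor-like cells led by Rpgrip1 and Cdk6, a cluster picked out after its values were seen. The cluster held 8, 74, 65 and 12 cells in tumours 1 to 4 and had 521, 381, 552 and 383 CPM of Cdk6, against 127, 104, 162 and 183 CPM in the other granule progenitor-like cells. Rpgrip1 itself had 0, 121, 188 and 174 CPM in the cluster in tumours 1 to 4, so it did not mark the tumour 1 cells. Without the cluster the Cdk6 difference was -0.24 with an adjusted p of 0.0754. At the finer clustering, where the cells led by Rpgrip1 and Cdk6 fell among the mixed clusters, it was 0.04 with an adjusted p of 0.752, and in the clustering with called doublets kept, where those cells were also among the mixed clusters, it was -0.13 with an adjusted p of 0.287.

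Cells of the cluster held Cdk6 widely and not in a few cells. After thinning to 4900 UMIs, 87.5%, 79.6%, 89.5% and 100% of its cells had a Cdk6 UMI in tumours 1 to 4, against 38.7%, 35.7%, 46.9% and 57.0% of the other granule progenitor-like cells. Median mitochondrial shares were between 3.09% and 3.46% in the cluster and between 3.32% and 4.30% in the other cells. Of the genes within 1 Mb of Cdk6 on chromosome 5, Gatad1 was also higher in the cluster in each tumour, at 109, 115, 164 and 122 CPM against 59.3, 39.0, 45.2 and 38.5 CPM in the other cells. Cyp51 was higher in each tumour too, at 28.6, 34.6, 23.8 and 17.4 CPM against 25.8, 27.8, 20.6 and 4.82 CPM, with ranges that overlapped. Fam133b, at 74.5, 84.7, 92.5 and 43.5 CPM against 63.0, 67.7, 75.4 and 80.9 CPM, and Akap9, at 149, 121, 140.0 and 34.8 CPM against 107, 137, 130.3 and 109 CPM, overlapped between the cluster and the other cells. Nfia, which encodes a nuclear factor of granule neuron development, was among the 10 leading genes, at 1667, 1520.4, 2362 and 2184 CPM against 688, 587, 946 and 1017 CPM in the other cells. Ccnd2 was higher in the cluster in each tumour, at 452, 1289, 1812 and 1131 CPM against 405, 903, 1501 and 660.1 CPM. Cdk4 was too, at 922, 891, 774 and 722 CPM against 804, 838, 740 and 596 CPM, and so was Rbl1, from between 1 and 4 UMIs a tumour. The ranges of Ccnd2 and of Cdk4 overlapped. Ccnd1 had 355, 523, 515 and 505 CPM against 339.8, 477, 554 and 447 CPM, lower in tumour 3 and higher in the others.

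**Figure D5:**
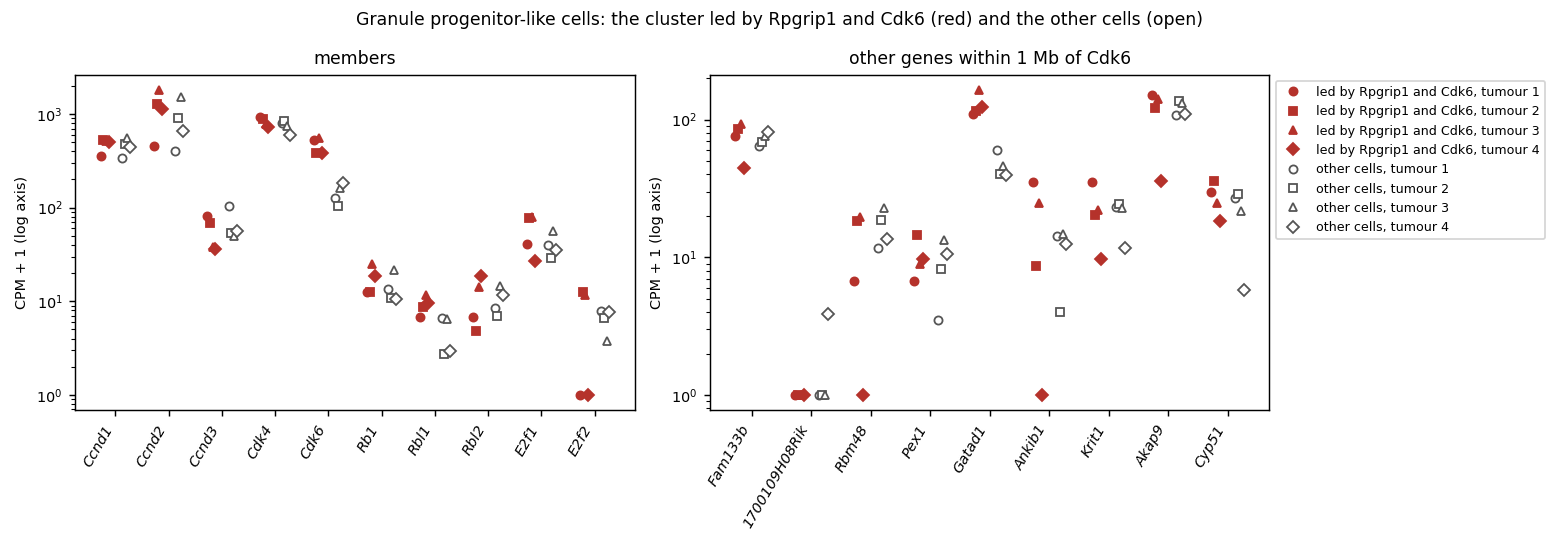
Levels in the granule progenitor-like cluster led by Rpgrip1 and Cdk6 (red) and in the other granule progenitor-like cells (open), with 1 symbol shape per tumour, on a log axis of CPM + 1. Left are the 10 genes followed here and right the other genes within 1 Mb of Cdk6, where Cdk6 and Gatad1 stand apart between the groups and most others overlap.

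The retinoblastoma family holds Rb1, the main brake on E2F, and its relatives Rbl1 and Rbl2, which encode p107 and p130. Rbl1 was almost absent from neuron-like cells, where 4 UMIs were found in 704 cells, split as 1, 2, 1 and 0 over tumours 1 to 4. The 3418 progenitor-like cells held 403 UMIs, at 8.50, 10.9, 14.0 and 6.23 CPM in the 4 tumours. The 0 in tumour 4 allows up to 5.12 CPM, at 3 counts. Summed over tumours, the level in neuron-like cells was 0.0819 of that in progenitor-like cells, with an exact 95% interval of 0.0222 to 0.212 that covers counting error only. The limma difference was -0.86 ± 0.13 on the log2(CPM + 10) scale, which understates a low gene, with an adjusted p of 9.68e-06, and the call held in 13 of 13 alternatives, with an adjusted p of at most 0.00427.

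Rbl1 also rose in cycling-like cells, at 9.82, 11.3, 11.2 and 9.44 CPM against 5.68, 2.80, 7.22 and 2.60 CPM in granule progenitor-like cells. The groups did not overlap, and the difference was 0.50 ± 0.12 with a limma adjusted p of 0.00336. Without tumour 2 it was 0.42 with an adjusted p of 0.0619, and over 12 alternatives the adjusted p ran between 2.61e-05 and 0.091. G2/M-like and S-phase-like cells did not separate, at 11.5, 12.0, 13.2 and 4.44 CPM against 8.57, 10.7, 9.95 and 13.1 CPM, a difference of -0.04 ± 0.17. In myeloid-like cells the difference was -0.52 ± 0.23 with an adjusted p of 0.0716, close to the median of all genes, and it passed the threshold without tumour 1 (-0.77, adjusted p = 0.0153). Myeloid-like cells held 28 Rbl1 UMIs in 673 cells, so there too Rbl1 passed the filter on detection only through progenitor-like cells.

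Rb1 was detected at similar low levels in most classes. It had 21.4, 32.5, 17.6 and 32.4 CPM in neuron-like cells against 22.0, 17.8, 28.3 and 13.8 CPM in progenitor-like cells, higher in 2 tumours and lower in 2, with a difference of 0.24 ± 0.17 and a limma adjusted p of 0.269. Without tumour 3 it was 0.47 with an adjusted p of 0.0495, and over 13 alternatives the adjusted p ran between 0.0342 and 0.889. Cycling-like cells had 26.8, 20.6, 30.4 and 10.4 CPM against 12.5, 10.2, 21.7 and 10.4 CPM in granule progenitor-like cells, a rise of 0.42 ± 0.13 with an adjusted p of 0.0185. That rise was seen in 3 of 4 tumours, with tumour 4 level, and was lost without tumour 1 (0.32, adjusted p = 0.144) and without tumour 2 (0.35, adjusted p = 0.133), among 12 alternatives between 0.00125 and 0.483. In myeloid-like cells the difference was -0.55 (adjusted p = 0.155), and without tumour 4 it was -0.92 (adjusted p = 0.0371). The muscle-like cells of tumour 1 had 61.4 CPM of Rb1 from 48 UMIs, with an exact Poisson interval of 45.2 to 81.4 CPM.

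Rbl2, the family member tied to resting cells, passed the limma threshold in 0 of the 6 comparisons and had an unadjusted p under 0.05 in 0 of them. It had 15.7, 5.66, 13.8 and 6.82 CPM in neuron-like cells against 8.08, 6.0, 9.85 and 7.60 CPM in progenitor-like cells, a difference of 0.17 ± 0.14 with a limma adjusted p of 0.334. In cycling-like against granule progenitor-like cells it was -0.08 ± 0.13, and in the other comparisons between -0.18 and 0.26. Rbl2 rested on between 39 and 102 UMIs per tumour in progenitor-like cells, and its SE lay between 0.13 and 0.26 over the 6 comparisons. Differences of that size, and also larger ones, could thus have been missed at this depth.

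E2f1 and E2f2 encode activating E2F factors that the retinoblastoma protein holds back. E2f1 followed S phase. It had 38.7, 37.4, 38.5 and 62.2 CPM in G2/M-like cells against 70.1, 92.6, 87.4 and 70.5 CPM in S-phase-like cells, and the groups did not overlap. The difference was -0.75 ± 0.14 with a limma adjusted p of 0.000266, and the call held in 11 of 11 alternatives. Cycling-like cells had 56.7, 66.9, 69.3 and 67.0 CPM against 39.2, 36.8, 63.2 and 33.8 CPM in granule progenitor-like cells, a rise of 0.52 ± 0.11 with an adjusted p of 0.000607 in 4 of 4 tumours. The level in G2/M-like cells was near that of granule progenitor-like cells, with means of 44.2 ± 12.0 CPM and 43.2 ± 13.5 CPM (SD, n = 4).

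In neuron-like cells E2f1 remained detected, at 45.7, 47.5, 42.8 and 59.7 CPM against 46.7, 64.0, 72.1 and 60.8 CPM in progenitor-like cells. All 4 tumours were lower, by -0.26 ± 0.12, but the limma adjusted p was 0.0798. Without tumour 1 or tumour 4 it passed the threshold, at adjusted p of 0.0459 and 0.049, among 13 alternatives up to 0.463. In myeloid-like cells E2f1 had 20.5, 16.8, 33.9 and 13.5 CPM and fell by 1.21 on the log2 scale with an adjusted p of 0.000268, or by 0.71 relative to the median of all genes. Oligodendrocyte lineage-like cells had 35.8, 0, 57.8 and 40.6 CPM, a difference of -0.99 ± 0.38 that missed the threshold with an adjusted p of 0.164. The 0 was in tumour 2, where the class had 16 cells and 104028 UMIs of all genes, so it does not show absence. Genes most like E2f1 over the 44 points were Tbc1d16 (0.87), Rfc1 (0.86) and Apba2 (0.84), with 0.25, 0.38 and 0.10 over the granule-lineage points.

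E2f2 was detected in each tumour and in both classes of the granule-lineage comparisons. It had 8.56, 4.91, 7.54 and 5.12 CPM in neuron-like cells against 11.7, 13.1, 14.4 and 7.40 CPM in progenitor-like cells, a difference of -0.38 ± 0.13 with a limma adjusted p of 0.023. The call was lost without tumour 2 (-0.30, adjusted p = 0.191) and without tumour 3 (-0.35, adjusted p = 0.0912), among 13 alternatives between 0.0105 and 0.191. Cycling-like cells had 14.7, 14.0, 12.5 and 6.61 CPM against 6.25, 6.66, 5.42 and 6.07 CPM in granule progenitor-like cells, a rise of 0.43 ± 0.12 with an adjusted p of 0.0129. Leaving out tumour 1, tumour 2 or tumour 3 lost that call, at adjusted p of 0.0813, 0.0869 and 0.0584, among 12 alternatives between 0.000748 and 0.19. The muscle-like cells of tumour 1 had 51.1 CPM of E2f2 from 40 UMIs.

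Sequence near the start is shown for Rbl1 and E2f2, the only genes of the 10 with a match to an E2F site in the windows searched. Both rose in cycling-like cells, but so did Ccnd1, Cdk4, Rb1 and E2f1, and no window was available for Ccnd1 and Rb1. The E2F site was searched as TTTCCCGC, TTTCGCGC, TTTGCCGC or TTTGGCGC on both strands in RefSeq windows of GRCm38.p6 that run from 250 bases before to 50 after a gene's RefSeq start. Of 32851 such windows in all, 2.27% hold a match. The Rbl1 window held 1 match, 18 to 11 bases before the start, and 1 of the 2 E2f2 windows held a match 39 to 46 bases after its RefSeq start. The E2f2 RefSeq start lies 120 bases before the first base of the gene in the GENCODE annotation. The E2f1 and Cdk6 windows lie inside these genes in GENCODE, with starts 466 and 2408 bases from the first base, so they are not read here as promoters. The windows of Cdk4 and Rbl2 and the first of Ccnd3 held none of these letters. A GLI site searched as GACCACCCA on both strands, present in 0.253% of windows, was not found in the windows of Rbl1, E2f2, Cdk4, Rbl2 and Ccnd3. A match is a description of letters and not of binding. The first line gives the 250 bases before the Rbl1 start at chr2:157204535-157204784 (minus strand), and the second 30 bases of the E2f2 window at chr4:136172294-136172323 (plus strand), 5′ to 3′ with the match in capitals.
Rbl1: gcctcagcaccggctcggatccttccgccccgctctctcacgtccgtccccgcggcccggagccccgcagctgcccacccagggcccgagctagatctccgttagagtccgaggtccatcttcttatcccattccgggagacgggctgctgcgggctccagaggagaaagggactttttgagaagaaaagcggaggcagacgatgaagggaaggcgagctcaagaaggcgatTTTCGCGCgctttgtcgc
E2f2: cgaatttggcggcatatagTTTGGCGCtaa

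The genes downstream and beside the 10 were read from lists chosen with earlier results of these data known. The counts of each list stand beside these shares of all genes called. In neuron-like cells 24.3% were higher and 20.3% lower, in cycling-like cells 12.2% and 9.41%, and in G2/M-like cells 7.46% and 8.81%. In astrocyte-like cells the shares were 3.25% and 1.92%, in oligodendrocyte lineage-like cells 2.34% and 0.266%, and in myeloid-like cells 12.0% and 52.9%. Of 20 E2F target genes, which encode replication enzymes and nucleotide synthesis, 0 rose and 20 fell in neuron-like cells, with a median difference of -1.36 against 0.03 over all genes. Rrm2, a subunit of ribonucleotide reductase, had a difference of -2.35 ± 0.19 (limma adjusted p = 4.32e-06), and Tk1, thymidine kinase, -1.96 ± 0.14 (adjusted p = 1.4e-09). In cycling-like cells 19 of 20 rose and 0 fell, with a median of 0.96. In G2/M-like against S-phase-like cells 0 rose and 16 fell, led by the licensing genes Cdc6 (-2.02 ± 0.17, adjusted p = 1.09e-09) and Mcm6 (-1.70 ± 0.09, adjusted p = 3.22e-13). In astrocyte-like cells 13 of 20 fell, in oligodendrocyte lineage-like cells 2, and in myeloid-like cells 19. These differences go with classes that were themselves defined by replication and mitosis markers, so the direction was partly fixed.

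The CDK inhibitors went both ways in neuron-like cells, with 2 higher and 3 lower of 7 tested, beside 24.3% of all genes higher and 20.3% lower, so the count of higher inhibitors was near the background. Cdkn1b, which encodes p27 and is raised as granule neurons leave the cycle, rose by 0.75 ± 0.09 (limma adjusted p = 9.85e-07) and Cdkn2b, an INK4 inhibitor of Cdk4 and Cdk6, by 0.62 ± 0.15 (adjusted p = 0.00185). Cdkn1a, which encodes p21, differed by -0.80 ± 0.13 and Cdkn2c, an INK4 inhibitor, by -0.65 ± 0.12. In cycling-like cells 2 of 6 tested rose and 0 fell, and both were INK4 inhibitors, Cdkn2d at 1.13 ± 0.12 (adjusted p = 4.86e-08) and Cdkn2c at 0.80 ± 0.11 (adjusted p = 3.01e-06). The same genes led in G2/M-like against S-phase-like cells, where 3 rose and 1 fell of 6 tested, with Cdkn2d at 1.72 ± 0.12 and Cdkn2c at 1.08 ± 0.11. Astrocyte-like and oligodendrocyte lineage-like cells had 0 of 7 past the limma threshold in each direction, and 1 of 7 in each class had an unadjusted p under 0.05. In myeloid-like cells 0 rose and 5 of 6 fell, with a median of -1.09, beside 52.9% of all genes called lower and a median of -0.51.

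The cyclins E and A with Cdk2 and their regulators followed the phases. Of 7 genes 0 rose and 6 fell in neuron-like cells, with Ccna2, cyclin A2, at -2.38 ± 0.30 (limma adjusted p = 0.00126) and Fbxo5, an inhibitor of the anaphase-promoting complex, at -2.00 ± 0.21 (adjusted p = 7.52e-06). In cycling-like cells 6 rose and 0 fell. In G2/M-like against S-phase-like cells 2 rose, with Ccna2 at 2.61 ± 0.08, and 4 fell, with Ccne2 at -1.95 ± 0.16 and Ccne1 at -1.08 ± 0.16, the cyclins E that act at the entry to S phase. Astrocyte-like cells had 3 lower, oligodendrocyte lineage-like cells 1, and myeloid-like cells all 7, where 52.9% of all genes were called lower.

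Of the E2F and DP partners, 4 of 7 tested fell and 0 rose in neuron-like cells, led by E2f8 (-1.11 ± 0.13, limma adjusted p = 8.64e-07), a repressor E2F, and E2f5 (-0.86 ± 0.13, adjusted p = 1.56e-05). In cycling-like cells 4 of 7 rose, led by E2f8 (1.05 ± 0.13) and E2f7 (0.59 ± 0.12). In G2/M-like cells 2 of 8 rose, E2f8 (0.88 ± 0.15) and E2f5 (0.65 ± 0.15), where E2f1 fell, while the median of that list was -0.21. Of 7 genes of the MuvB core and its partners, which repress or activate cell-cycle genes, 3 fell in neuron-like cells, led by Mybl2 (-1.18 ± 0.17) and Foxm1 (-1.17 ± 0.14), and 6 rose in cycling-like cells. Of the 3 subunits of the Cdk-activating kinase, 0 passed the limma threshold in the granule-lineage and glial comparisons. An unadjusted p under 0.05 was found for 1 of them in neuron-like cells, 1 in G2/M-like cells and 0 in the others, and Ccnh fell in myeloid-like cells (-0.96 ± 0.16). In myeloid-like cells 5 of 7 E2F and DP partners and 5 of 7 MuvB genes fell, with medians of -0.91 and -0.91 against -0.51 for all genes, of which 52.9% were called lower. Glial classes had 0 E2F and DP partners past the limma threshold, with 2 of 8 in astrocyte-like and 3 of 8 in oligodendrocyte lineage-like cells at an unadjusted p under 0.05. One MuvB gene, Rbbp4, fell in astrocyte-like cells.

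The list of hedgehog inputs, genes placed upstream of the D cyclins, also holds Mycn, named above as a gene that hedgehog signalling raises. In neuron-like cells 7 of 7 tested fell, with a median of -1.18, led by the hedgehog co-receptors Gas1 (-2.18 ± 0.16, limma adjusted p = 1.82e-09) and Boc (-1.30 ± 0.18, adjusted p = 6.51e-06). These cells were lower for hedgehog inputs, where 20.3% of all genes were called lower, and lower in Ccnd1 in each tumour. The Ccnd2 difference was smaller than its error. Whether the hedgehog inputs and Ccnd1 were linked was not tested. In cycling-like cells 2 rose and 1 fell, Mycn, at -0.24 ± 0.07 with an adjusted p of 0.00906. In G2/M-like against S-phase-like cells 1 rose and 5 fell. Glial classes had 0 past the limma threshold, with 1 of 7 in astrocyte-like and 3 of 7 in oligodendrocyte lineage-like cells at an unadjusted p under 0.05. In myeloid-like cells 7 of 7 fell, led by Mycn (-3.40 ± 0.16), beside 52.9% of all genes called lower.

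Some of these genes share their stretch of the genome with another gene, and how strand and shared reads were handled is not known from the labels. Ccnd1 (chr7:144929931-144939925) overlaps LTO1, Ccnd2 (chr6:127125162-127152193) overlaps 9330179D12Rik, Ccnd3 (chr17:47505051-47599691) overlaps Bysl, Cdk4 (chr10:127063534-127067920) overlaps Tspan31, Rb1 (chr14:73183673-73325822) overlaps Rcbtb2 and Lpar6, and Rbl2 (chr8:91070057-91123844) overlaps Aktip. Cdk6 (chr5:3341485-3531008) and Rbl1 (chr2:157145893-157204534) overlap noncoding genes, while E2f1 and E2f2 overlap none in the annotation of GRCm38. Rb1 also overlaps the noncoding genes Gm17233 (chr14:73173820-73187321) and Mir687 on its own strand. All other overlaps lie on the opposite strand. What share of the UMIs falls in the overlaps was not measured, so the levels of these genes are uncertain to that extent.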

How the data were processed

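Single-cell RNA sequencing covered 6509 deposited cells of 4 tumours. The authors deposited log2 values, read from the numbers as log2(UMI count / size factor + 1), with 10x Genomics per the labels and Cell Ranger, Seurat and mm10 per the submitters' processing notes; versions and the tool for size factors are not given there. UMI counts were worked out from these values. Cells needed 500 genes and at most 10% mitochondrial UMIs, which removed 0 cells, and 19 called doublets (0.292%) were left out; a caller marking so few has not worked. Clusters came from scanpy 1.11.5 and leidenalg 0.10.2 (1000 variable genes, 30 components, resolution 1) and were named from marker lists by thresholds set after the clusters had been seen, with unnamed granule-lineage cells (646) kept apart. A class entered a tumour's values with at least 10 cells. UMIs were summed per tumour and class and tested with limma 3.58.1 (trend and robust, tumour as a block) on log2(CPM + 10), over genes common to the 4 files that at least 5% of the cells in one or other class held, leaving out clustering and naming genes; the script was tested on simulated data. The block comes from both classes being cells of the same tumour: deviations from class means correlated at between 0.15 and 0.72 over 24 tumour pairs. Shares of D cyclins used exact sign-flip permutation tests. The 10 genes, the lists and the rule for named genes (the 2 of each list with the largest difference past the threshold in each direction, and the 3 genes most like each of 4 of the 10) were chosen with earlier results of these data known. Alternatives were another pseudocount (1), no filter, thinning to 4900 UMIs, means of the deposited log2 values, resolution 2, doublets kept, no block, each tumour left out and 3 other class definitions, the last added after seeing the data. Keeping doublets meant clustering and naming again. Promoter windows are from RefSeq, for 7 of the 10 genes.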

Additional observations from a re-analysis of the deposited data

Results flagged for a closer look

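Of 117 sets of 4 tumours (a gene or a D cyclin share within a class), 10 had 1 tumour whose gap to its nearest neighbour exceeded Dixon's 95% critical value as a share of the whole range, and chance alone flags about 1 in 20.

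Ccnd3 and its share stood high in tumour 1. Ccnd3 was 99.4 CPM in G2/M-like cells of tumour 1, against between 40.9 and 46.7 CPM in the other tumours, and 107 CPM in neuron-like cells, against between 27.5 and 32.7 CPM. Its share of D cyclin UMIs in tumour 1 was 11.1% in G2/M-like, 13.3% in mixed progenitor-like and 12.6% in neuron-like cells, while no other tumour passed 4.06% in these classes.

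Ccnd1 was 299 CPM in oligodendrocyte lineage-like cells of tumour 1, against between 616 and 674 CPM elsewhere, in 10 cells with a median of 58142 UMIs. Cdk4 was 369 CPM in astrocyte-like cells of tumour 4, against between 736 and 791 CPM. Cdk6 was 38.5 CPM in oligodendrocyte lineage-like cells of tumour 2, against between 108 and 109.6 CPM. E2f1 was 62.2 CPM in G2/M-like cells of tumour 4, against between 37.4 and 38.7 CPM. E2f2 was 22.6 CPM in myeloid-like cells of tumour 3, against between 8.62 and 10.9 CPM, and rests on 2 UMIs.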

How the results depend on the processing

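Of 746 member differences recomputed under an alternative, 650 kept their side of the threshold, 69 lost it and 24 gained it. The other 3 turned direction with a call in the main fit or in the alternative. Differences that turned direction without a call in either fit were counted among the 650. In cycling-like cells Ccnd2 turned to -0.23 at resolution 2 and to -0.10 with doublets kept, a setting that also rebuilt the classes, and Cdk6 to 0.041 at resolution 2, where the cluster rich in Cdk6 left the class.

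Counts of genes past the threshold moved by over 1.5 times as follows, and the cause was not tested. Neuron-like cells (4019 genes) gave 2457 after thinning and 2000 without the replicate block. Cycling-like cells (1949) gave 1152 on means of log2 values, 964 after thinning and 208 without the block. G2/M-like cells (1489) gave 744 on means of log2 values, 604 after thinning, 616 at resolution 2, 971 with doublets kept, 257 without the block and between 882 and 1716 with a tumour left out, 882 without tumour 2 and 976 without tumour 3. Astrocyte-like cells (520) gave 1023 on means of log2 values, 218 with pseudocount 1, 146 after thinning, 181 without the filter, 78 without the block and between 323 and 445 with a tumour left out, 323 without tumour 2 and 344 without tumour 3. Oligodendrocyte lineage-like cells (264) gave 447 on means of log2 values, 4 with pseudocount 1, 162 after thinning, 0 without the filter, 108 at resolution 2, 0 without the block, 175 without mixed clusters, 100 with unnamed clusters joined and between 0 and 921 with a tumour left out, 921 of them without tumour 1. Without the block, 2 of the 10 genes passed the threshold in neuron-like cells (Rbl1, called in both, and Ccnd1, gained), 0 in cycling-like, 1 in G2/M-like, 0 in astrocyte-like and 5 in myeloid-like cells; all pairs are cells of the same tumour.

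Share differences (percentage points) moved most in cycling-like cells, where Ccnd1 (0.65) gave 8.85 at resolution 2, 5.56 with doublets kept and between -0.30 and 1.48 with a tumour left out, and Ccnd2 (-0.39) gave -8.54, -5.17 and between -1.23 and 0.76. In G2/M-like cells Ccnd1 (6.02) gave 2.18 at resolution 2 and 3.27 with doublets kept, Ccnd2 (-5.26) gave -2.42 and -2.69, and Ccnd3 (-0.76) gave 0.24 at resolution 2. Shares in neuron-like, glial and myeloid-like cells moved by less than 1 SD. Depth limits Rbl1, Rbl2, Rb1 and E2f2 most, whose levels often rest on under 100 UMIs a tumour and class.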
